A study of Drosophila melanogaster with 36 samples.

Results

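Seminal fluid and ejaculatory bulb genes encode proteins that Drosophila melanogaster males transfer to females with the sperm. A list of 10 such genes was matched by current or older symbol to the genes annotated to the array, and 9 of them had an element (a spotted cDNA feature, printed as a pair of duplicate spots) of their own, 10 elements in all. These 10 were among 14866 elements tested, out of 15732 on the array. The gene listed as Peb is now called Ebp. The remaining gene, Acp26Aa, appeared only on an element annotated to Acp26Aa and Acp26Ab together, which is described separately. Acp53C14b had 2 elements, of which element 1 had values on only 18 arrays, all of them with even array numbers.

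Whole adult flies of 3 strains were compared on 36 arrays with 2 channels: the wild type OregonR, the strain Antp73b, which carries a mutation of the homeotic gene Antennapedia, and the strain ap56f, which carries a mutation of the wing and neuron selector gene apterous. All 3 came from Carolina Biological Supply, per the labels. Each of the 9 ordered pairs of strains was hybridised on 4 arrays, so that 12 arrays carried the same strain in both channels, and 8 arrays compared each pair of strains directly, 4 in each orientation. The labels do not give the sex ratio, the age, the mating state or the number of RNA extractions, so the spread between arrays may be technical. In whole-fly RNA, a strain with fewer males, smaller glands or less transcript per gland cell would give the same ratio, and these cannot be told apart.

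Accessory gland proteins, named Acp with a cytological position, are secreted by the paired male accessory glands and act in the mated female on egg laying, sperm storage and receptivity. The ejaculatory bulb lies downstream of the glands and secretes proteins of the posterior mating plug, which forms in the female tract during mating. Both organs are male, and transcripts of their secreted proteins are known mainly from adult males.

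The deposited value of a spot is a signed fold between the channels. Here it was turned into a log2 ratio coded as channel 1 over channel 2 and centred per array. Whether a positive fold stands for the Cy3 or the Cy5 channel is not stated in the sources used here. So each difference is reported as lying on a side: the minus side means less transcript in the strain named first if the fold was channel 1 over channel 2, and more if it was the reverse. The comparison of sides between genes holds under either reading. Ratios do not carry levels, so no gene's level could be set against another's. An element was called if its adjusted p from limma, fitted over all 36 arrays with a dye term, was under 0.05 across all tested elements.

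Most of these genes differed between the wild type and both mutants, and on the same side. Against OregonR, 6 of the 10 elements (5 of 9 genes) were called for Antp73b, all on the minus side, with a median difference of -0.31 over the 10 elements. Across the array 22.5% of elements were called in that comparison, 11.1% on the minus and 11.4% on the plus side, and the median difference was 0.00. For ap56f, 9 of the 10 elements (8 of 9 genes) were called on the minus side, with a median of -0.39, where 15.2% of all elements were called, 7.1% on the minus and 8.13% on the plus side. Between the mutants, 5 of the 10 were called, all on the plus side for Antp73b against ap56f, with a median of 0.12, where 15% of all elements were called, 6.85% on the minus and 8.13% on the plus side. The 3 comparisons share arrays, so their counts are not independent. Acp53C14a, Acp53C14b, Acp62F, Acp36DE and Ebp were the 5 genes called in both mutants against OregonR.

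**Figure D1:**
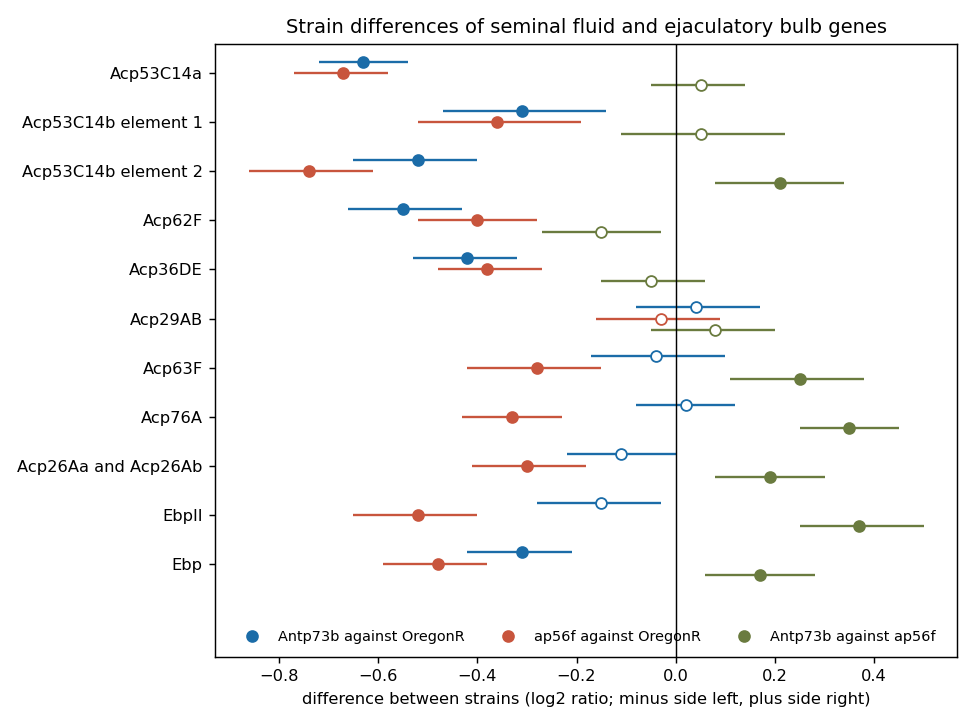
Difference between strains in log2 ratio (x axis) for each gene or element (y axis), with 95% confidence intervals from limma as bars. Filled points were called and open points were not. All filled points against OregonR lie left of 0 and all filled points of Antp73b against ap56f lie right of 0, while the 3 points of Acp29AB are open.

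Acp53C14a had the largest difference of the 10 elements from OregonR for Antp73b, and its neighbour Acp53C14b had the largest for ap56f, through element 2. Both belong to a small cluster of accessory gland genes. With Antp73b in channel 1 and OregonR in channel 2, the log2 ratios of Acp53C14a were -0.44, -0.49, -0.49 and -0.63. With the strains exchanged they were 0.87, 0.85, 0.72 and 0.36. The orientations were of opposite sign on all 8 arrays, without overlap. The difference of Antp73b from OregonR was -0.63 (SE 0.046, adjusted p = 3.9e-16), a 1.55-fold ratio.

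For ap56f the ratios of Acp53C14a were -0.52, -0.49, -0.70 and -0.96 with ap56f in channel 1, and 0.63, 0.77, 0.73 and 0.79 with OregonR there. The difference was -0.67 (SE 0.046, adjusted p = 6.7e-17), or 1.60-fold, and only 0.484% of all elements differed by as much on either side. On the 8 arrays carrying both mutants the ratios lay between -0.06 and 0.13. The mutants differed by 0.05 (95% confidence interval -0.05 to 0.14, adjusted p = 0.58), so Acp53C14a set each mutant apart from OregonR, and a difference between the mutants of up to 0.14 lies within the interval.

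The better-covered element 2 of Acp53C14b gave ratios of -0.49, -0.26, 0.00 and -0.14 with Antp73b over OregonR, and 0.79, 0.58, 1.04 and 0.89 in the other orientation. With ap56f over OregonR the ratios were -0.42, -0.43, -0.07 and -0.83, and reversed they were 1.10, 0.84, 1.11 and 1.10. The orientations did not overlap in either comparison, although their centre lay above 0, as the dye offset of 0.23 of that element shows. The differences were -0.52 for Antp73b (SE 0.063, adjusted p = 2.2e-09) and -0.74 for ap56f (SE 0.063, adjusted p = 1.3e-13), the latter 1.66-fold and rank 13 on its side among all elements. The mutants differed by 0.21 (SE 0.063, adjusted p = 0.014), but this call was lost in 5 of 20 alternatives, with adjusted p from 0.067 on the direct arrays alone to 0.39 on even-numbered arrays.

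Element 1 of Acp53C14b, read on 4 direct arrays per comparison, differed by -0.31 for Antp73b (SE 0.081, adjusted p = 0.0049) and by -0.36 for ap56f (SE 0.081, adjusted p = 0.0019). All 4 direct arrays were on the minus side in both comparisons, but fitted alone they lost the call for ap56f (-0.27, adjusted p = 0.17). Both calls were also lost from the first spot (adjusted p = 0.19 and 0.23) and on the last 2 arrays of each group (adjusted p = 0.13 and 0.15). Between the mutants it gave 0.05 (95% confidence interval -0.11 to 0.22, adjusted p = 0.75). The neighbour Acp53Ea, singled out after its values were seen, differed by -0.33 for Antp73b (adjusted p = 1.5e-08) and -0.28 for ap56f (adjusted p = 1.2e-06). Genes of that cluster are related in sequence, and cross-hybridisation between their elements was not tested.

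**Figure D2:**
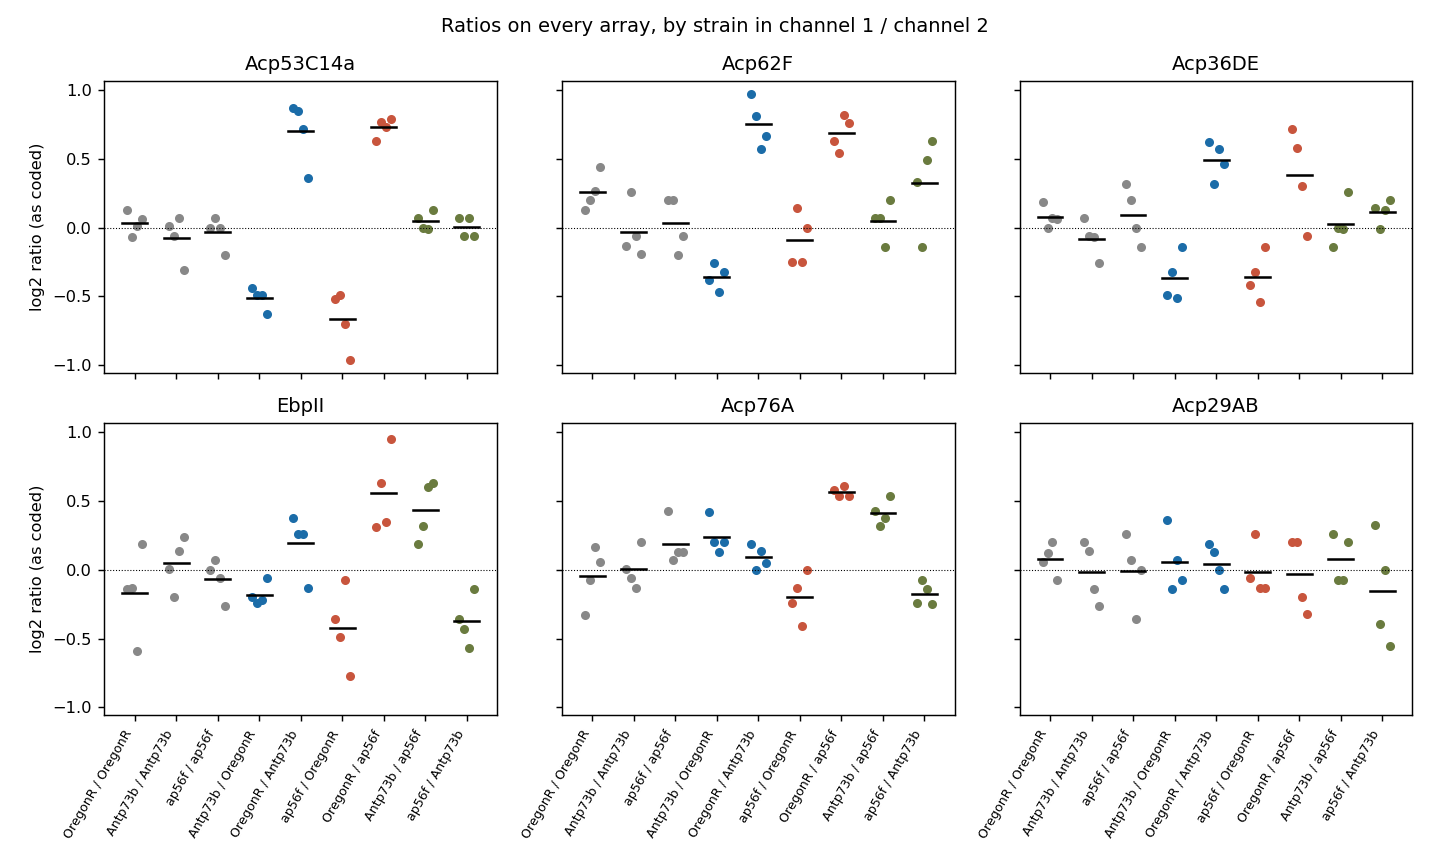
Log2 ratio of 6 genes on every array (y axis, coded as channel 1 over channel 2) by the strains in the channels (x axis, 4 arrays each). Points are arrays and bars are group means. Acp53C14a, Acp62F and Acp36DE separate the orientations with OregonR (blue and red), EbpII and Acp76A separate those of ap56f with OregonR (red) and of the mutants (green), and Acp29AB separates none.

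Acp62F encodes a protease inhibitor that is transferred to the female and is toxic when expressed outside the glands. Its ratios were -0.38, -0.26, -0.47 and -0.32 with Antp73b over OregonR, and 0.97, 0.81, 0.57 and 0.67 in the other orientation. All 8 arrays lay on the same side, at -0.55 (SE 0.058, adjusted p = 8.7e-11; 1.46-fold). With ap56f over OregonR the ratios were -0.25, 0.14, -0.25 and 0.00, against 0.63, 0.54, 0.82 and 0.76 reversed. These orientations did not overlap either, and the difference was -0.40 (SE 0.058, adjusted p = 5.9e-07). The mutants differed by -0.15 (95% confidence interval -0.27 to -0.03, adjusted p = 0.078), which was not called. It was called, at -0.19 (adjusted p = 0.017), without array 71, which carried ap56f over Antp73b.

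Acp36DE is a large glycoprotein needed for sperm to be stored in the mated female. With Antp73b over OregonR its ratios were -0.49, -0.32, -0.51 and -0.14, and reversed they were 0.62, 0.32, 0.57 and 0.46. With ap56f over OregonR they were -0.42, -0.32, -0.54 and -0.14, against 0.72, 0.58, 0.30 and -0.06. The sets did not overlap in either comparison, and only the last array, at -0.06, was on the other side. The differences were -0.42 (SE 0.052, adjusted p = 5.6e-09) for Antp73b and -0.38 (SE 0.052, adjusted p = 2.1e-07) for ap56f. The mutants differed by -0.05 (95% confidence interval -0.15 to 0.06, adjusted p = 0.6).

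Acp29AB, a C-type lectin that helps the female retain stored sperm, was the only gene of the 9 called in no comparison. Over all 36 arrays its ratios ran from -0.55 to 0.36, and the orientations overlapped for every pair of strains. The difference from OregonR was 0.04 for Antp73b (95% confidence interval -0.08 to 0.17, adjusted p = 0.66) and -0.03 for ap56f (95% confidence interval -0.16 to 0.09, adjusted p = 0.78). The mutants differed by 0.08 (95% confidence interval -0.05 to 0.20, adjusted p = 0.45). These intervals leave out the size seen for Acp36DE, the other gene of the list with a role in sperm storage. The duplicate spots of Acp29AB correlated at r = 0.69 over arrays, within the range of 0.34 to 0.84 of the 10 elements. Its ratios also ran from -0.36 to 0.26 on arrays with the same strain in both channels. The correlation therefore does not show how well the element would read a strain difference.

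Acp76A, a serpin (a family of protease inhibitors) of the seminal fluid, set ap56f apart from the other strains. With OregonR over ap56f its ratios were 0.58, 0.54, 0.61 and 0.54, against -0.24, -0.13, -0.41 and 0.00 reversed. With Antp73b over ap56f they were 0.43, 0.32, 0.38 and 0.54, against -0.24, -0.07, -0.14 and -0.25. Neither pair of sets overlapped. The difference of ap56f from OregonR was -0.33 (SE 0.049, adjusted p = 8.5e-07; 1.26-fold), and that of Antp73b from ap56f was 0.35 (SE 0.049, adjusted p = 2e-07; 1.27-fold). With Antp73b and OregonR the ratios were 0.42, 0.20, 0.13 and 0.20, against 0.19, 0.00, 0.14 and 0.05. These overlapped, and the difference was 0.02 (95% confidence interval -0.08 to 0.12, adjusted p = 0.83).

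Acp63F, another accessory gland gene, also had ap56f on the minus side of the other strains, with less precise measurements. With OregonR over ap56f its ratios were 0.42, 1.03, 1.04 and 0.39, against 0.00, 0.00, 0.91 and 0.07, and the sets overlapped through the single array at 0.91. The difference of -0.28 (SE 0.067, adjusted p = 0.0018) was called, with 4 of 8 direct arrays on the minus side before removal of a dye offset of 0.34. From the 8 direct arrays alone it was -0.24 and not called (adjusted p = 0.23). With Antp73b over ap56f the ratios were 0.54, 0.58, 0.77 and 0.68, against 0.00, -0.26, 0.14 and 0.36, without overlap, and the difference was 0.25 (SE 0.067, adjusted p = 0.0073). This call was lost in 4 of 20 alternatives, with adjusted p from 0.19 on the last 2 arrays of each group to 0.37 on even-numbered arrays, and that of ap56f against OregonR in 5. The duplicate spots of Acp63F correlated least of the 10 elements, at r = 0.34. Against OregonR, Antp73b gave -0.04 (95% confidence interval -0.17 to 0.10, adjusted p = 0.74).

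Acp26Aa encodes ovulin, a prohormone-like protein that stimulates ovulation, and its neighbour Acp26Ab encodes another accessory gland peptide. Their shared element gave 0.72, 0.38, 0.37 and 0.26 with OregonR over ap56f and 0.00, 0.00, -0.31 and -0.27 reversed. The difference of ap56f was -0.30 (SE 0.055, adjusted p = 6.7e-05), a call lost on odd-numbered arrays (-0.23, adjusted p = 0.076). For Antp73b it was -0.11 (95% confidence interval -0.22 to 0.00, adjusted p = 0.16), and between the mutants 0.19 (SE 0.055, adjusted p = 0.014). That last call was lost without array 73 (0.15, adjusted p = 0.06) and in 6 of 20 alternatives (adjusted p from 0.084 from the first spot to 0.52 on the last 2 arrays of each group). An element annotated to Acp26Ab alone gave -0.28 for ap56f (adjusted p = 0.00046), 0.10 for Antp73b (adjusted p = 0.22) and 0.38 between the mutants (adjusted p = 1.8e-06), so the shared element cannot be assigned to Acp26Aa.

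The ejaculatory bulb genes EbpII and Ebp are neighbours in the genome. EbpII gave -0.36, -0.49, -0.07 and -0.77 with ap56f over OregonR, and 0.31, 0.63, 0.35 and 0.95 reversed. All 8 arrays lay on the same side, at -0.52 (SE 0.062, adjusted p = 2.7e-09; 1.44-fold). With Antp73b over ap56f the ratios were 0.19, 0.32, 0.60 and 0.63, against -0.36, -0.43, -0.57 and -0.14, again on the same side on 8 of 8 arrays. The mutants differed by 0.37 (SE 0.062, adjusted p = 7.4e-06; 1.29-fold).

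With Antp73b over OregonR EbpII gave -0.20, -0.24, -0.22 and -0.06, against 0.38, 0.26, 0.26 and -0.13. The sets overlapped through the array at -0.13, and the difference of -0.15 (95% confidence interval -0.28 to -0.03, adjusted p = 0.066) was not called. It was called without array 40, 53, 61 or 68 (adjusted p from 0.027 without array 68 to 0.045 without array 61). It was also called in 3 of 20 alternatives. These were the first 2 arrays of each group (-0.22, adjusted p = 0.0049), array weights (-0.17, adjusted p = 0.022) and values not centred (-0.16, adjusted p = 0.045). The bulb gene EbpIII, named after its values were seen, lay on the opposite side, at 0.31 for Antp73b (adjusted p = 7.7e-06) and 0.23 for ap56f (adjusted p = 0.0019).

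Ebp, a protein of the mating plug, carried the strongest dye offset of the 10 elements, 0.37, and its ratios on arrays with the same strain in both channels ran from 0.00 to 0.58. With OregonR over ap56f it gave 0.68, 0.76, 1.20 and 1.04, against -0.13, -0.13, 0.27 and 0.13. With OregonR over Antp73b it gave 0.72, 0.63, 0.79 and 0.57, against 0.05, -0.06, 0.06 and -0.19. Neither pair of sets overlapped, and their centres lay above 0. The differences were -0.48 for ap56f (SE 0.054, adjusted p = 6.2e-10) and -0.31 for Antp73b (SE 0.054, adjusted p = 8.8e-06). Without the dye term the latter was not called (adjusted p = 0.056). Between the mutants the ratios were 0.58, 0.81, 0.78 and 0.45 against 0.27, 0.26, 0.26 and 0.13, without overlap, a difference of 0.17 (SE 0.054, adjusted p = 0.023) that was lost without array 59 or 60 (adjusted p = 0.071 in either case). It was also lost in 6 of 20 alternatives, with adjusted p from 0.074 on the first 2 arrays of each group to 0.53 from the first spot.

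The strains thus fell into different orders for different genes. On the scale from minus to plus, Ebp and element 2 of Acp53C14b ran ap56f, Antp73b, OregonR, with all neighbouring steps called, although the step between the mutants was lost in the alternatives given above. Acp53C14a and element 1 of Acp53C14b had the same order with the step between the mutants not called. Acp36DE and Acp62F had both mutants on the minus side of OregonR, with the step between the mutants not called. EbpII, Acp63F and Acp76A had ap56f on the minus side of the other strains, with the step between Antp73b and OregonR not called. For EbpII that step was called in the settings given above. Of 9 elements read on all 8 direct arrays, 5 had non-overlapping orientations on the minus side for Antp73b against OregonR (8.21% of all elements), 7 for ap56f against OregonR (5.37%) and 5 on the plus side for Antp73b against ap56f (7.3%). On the opposite sides the counts were 0 of 9 each time, where 8.63%, 6.19% and 6.06% of all elements did not overlap.

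The 10 elements were also read against the arrays' own error. On the 12 arrays with the same strain in both channels, their SD lay between 0.12 (Acp53C14a and Acp63F) and 0.23 (EbpII and element 2 of Acp53C14b). A dye offset was called for 5 of the 10, and for 61.6% of all elements. The direct difference of a pair of strains was compared with the difference through the third strain, and the gap ran from -0.28 for element 1 of Acp53C14b to 0.16 for Acp76A, with no adjusted p below 1. Across all elements limma called 0 such gaps, and 580 had an unadjusted p under 0.05.

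Other seminal fluid genes were read from a list of 70, of which 29 had elements of their own, 32 in all. For Antp73b against OregonR, 11 lay past the threshold on the minus and 4 on the plus side (46.9% called, median -0.07), against 16 and 3 for ap56f (59.4% called, median -0.14). Between the mutants, 3 lay past it on the minus and 6 on the plus side (28.1% called, median 0.07). Across the array 22.5%, 15.2% and 15% of elements were called in these comparisons, in that order. The list therefore held genes on either side. None of the 10 elements described above was called on the plus side against OregonR. That does not set them apart from the longer list, because the lists were chosen with earlier results of these data known. The longer list also holds the bulb gene EbpIII, which was called on the plus side for both mutants.

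The serpin gene Spn77Bb differed by -0.58 for Antp73b (SE 0.053, adjusted p = 6.6e-13) and by -0.67 for ap56f (SE 0.053, adjusted p = 1.3e-14). A second element of Spn77Bb gave -0.46 and -0.57. Another serpin gene, Spn28F, gave -0.48 (adjusted p = 2.4e-11) and -0.56 (adjusted p = 3.2e-13). A further serpin gene, Spn38F, gave -0.21 (adjusted p = 0.0011) and -0.36 (adjusted p = 2.1e-07). Spn77Bb and Spn28F lay beside Acp53C14a and Acp62F in side and size. Gld, the glucose dehydrogenase of the male ejaculatory duct and female sperm storage organs, gave -0.56 for Antp73b (adjusted p = 2.7e-11) and -0.33 for ap56f (adjusted p = 2.1e-05). The sex peptide gene SP, whose product lowers female receptivity after mating, was singled out after its values were seen, and gave -0.30 (adjusted p = 7.8e-05) and -0.29 (adjusted p = 0.00032).

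On the plus side were hdly, at 0.40 for Antp73b (adjusted p = 2.7e-08) and 0.43 for ap56f (adjusted p = 5.5e-09), and Ance, a peptidase related to angiotensin converting enzyme, at 0.42 for Antp73b (adjusted p = 1.3e-08) and 0.02 for ap56f (adjusted p = 0.86). The odorant binding protein genes Obp56e and Obp56g went opposite ways between the mutants. Obp56e gave -0.63 for Antp73b against ap56f (SE 0.050, adjusted p = 7.2e-15), and Obp56g gave 0.42 (SE 0.051, adjusted p = 4.2e-09). Against OregonR, Obp56e lay on opposite sides, at -0.37 for Antp73b (adjusted p = 6.4e-08) and 0.27 for ap56f (adjusted p = 6.5e-05). Obp56g gave 0.12 for Antp73b (adjusted p = 0.076, not called) and -0.30 for ap56f (adjusted p = 1.2e-05). Gld, Ance, Obp56e and Obp56g are also expressed outside the male reproductive tract.

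**Figure D3:**
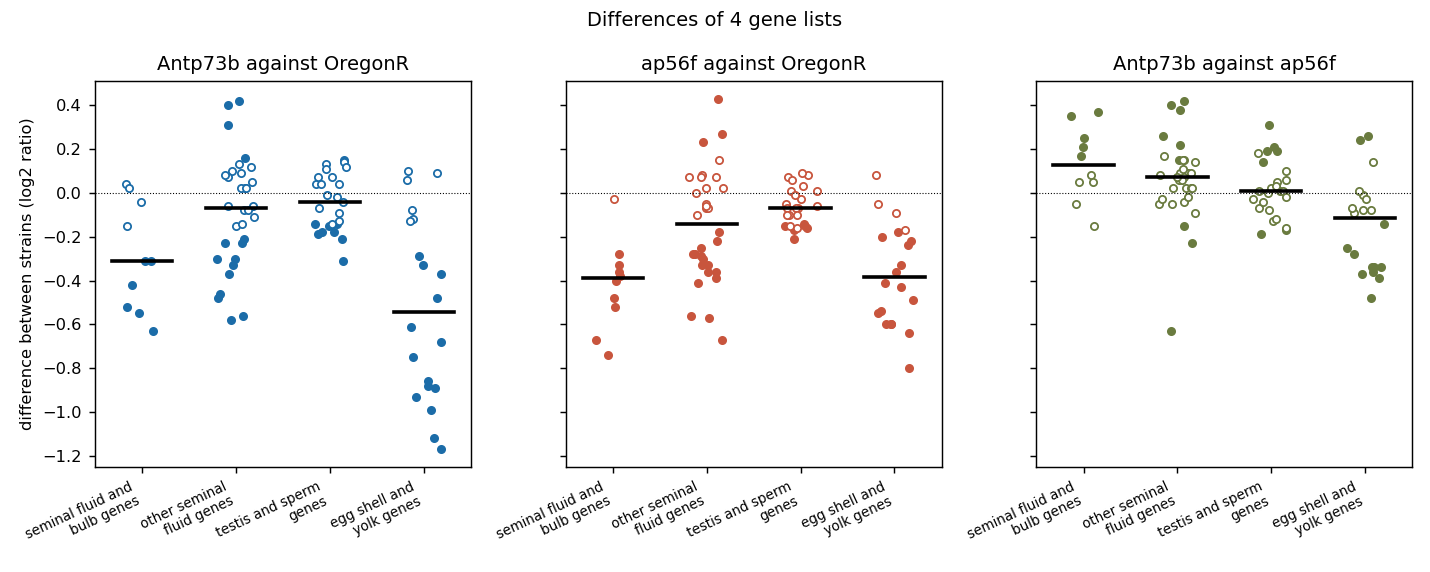
Difference between strains in log2 ratio (y axis) for each element of 4 gene lists (x axis), in a panel per comparison. Filled points were called, open points were not, and bars are list medians. The 10 seminal fluid and bulb elements have medians of -0.31 for Antp73b against OregonR and -0.39 for ap56f against OregonR. Those of the egg shell and yolk list are -0.54 and -0.38, and those of the testis and sperm list -0.04 and -0.07.

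Markers of other reproductive tissues were read beside these genes, since whole flies hold all of them. The testis and sperm list had 25 elements of 23 genes. For Antp73b against OregonR, calls numbered 8 on the minus and 1 on the plus side (36% called, median -0.04). For ap56f against OregonR they numbered 6 and 0 (24% called, median -0.07). Between the mutants 2 and 5 were called (28% called, median 0.01). Of all elements, 22.5%, 15.2% and 15% were called in the same comparisons, in that order. The median ratio of the testis and sperm list on an array lay between -0.07 and 0.07 in every group of arrays. The median of the 10 seminal fluid and bulb elements lay between 0.61 and 0.76 with OregonR over ap56f and between -0.25 and -0.13 reversed.

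The egg shell and yolk list, made up of genes expressed in females, had 20 elements of 17 genes. For Antp73b against OregonR, calls numbered 14 on the minus and 0 on the plus side (70% called, median -0.54). For ap56f against OregonR they numbered 16 and 0 (80% called, median -0.38). In an array's median that list ran from 0.53 to 0.61 with OregonR over Antp73b and from -0.61 to -0.34 reversed. The called elements of that list against OregonR thus lay on the same side as those of the 10 seminal fluid and bulb elements. Between the mutants the egg list had 10 calls on the minus and 2 on the plus side (60% called, median -0.12). The seminal fluid and bulb elements had 0 and 5 in that comparison. Across the array the shares called were 22.5% and 15.2% for Antp73b and ap56f against OregonR, and 15% between the mutants.

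A list of regulatory genes, not all of them specific to males, had 16 elements of 9 genes. These were dsx, fru, tra, tra2, prd, lov, dve, dsf and her. For Antp73b against OregonR 1 element was called, on the minus side (6.25%). For ap56f against OregonR 1 was called, on the plus side (6.25%), and for Antp73b against ap56f 2, on the minus side (12.5%). The called genes, named after their values were seen, were tra2, then tra, then tra2 and lov. Of all elements, 22.5%, 15.2% and 15% were called in the same comparisons, in that order. Of 3 genes of the female sperm storage organs, 1 (33.3%) was called in each mutant against OregonR. Both calls were on the plus side, and the list medians were 0.12 and 0.15. Named after their values were seen, these were Spn47C for Antp73b (0.35, adjusted p = 1.8e-05) and Send1 for ap56f (0.92, adjusted p = 1.3e-19). Between the mutants Spn47C gave 0.20 and Send1 gave -0.81, both called (66.7% of the list, median 0.12). The part of these lists in the differences of the seminal fluid genes was not tested.

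The genes whose dye-adjusted ratios over the 24 arrays with different strains were most like the mean of the 8 elements called in at least 1 comparison, and measured on all arrays, were sought among 10409 elements. They were Tps1 (r = 0.95), CG10680 (r = 0.93), CG13083 (r = 0.93), Spn77Bb (r = 0.91) and Spn28F (r = 0.90). The arrays share the same strains, so these correlations describe the strain pattern. CG13083 differed more than any of the 10 elements, by -0.74 for Antp73b (adjusted p = 1.1e-14), -1.20 for ap56f (adjusted p = 3.2e-22) and 0.46 between the mutants (adjusted p = 4.4e-08). CG10680 gave -0.57, -0.81 and 0.24 (adjusted p = 1.8e-09, 7.4e-14 and 0.0098). Tps1, a trehalose phosphate synthase, gave -0.27, -0.43 and 0.15 (adjusted p = 2e-07, 1.8e-12 and 0.0043).

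Among the elements themselves, the 36 pairs without Acp29AB had correlations between 0.20 and 0.90 over the arrays with different strains (median 0.67), with the closest pair Acp53C14a and element 2 of Acp53C14b. The 9 pairs with Acp29AB lay between -0.12 and 0.23. These correlations also describe the strain pattern, so low values follow for Acp29AB, which was called in no comparison.

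The labels give no hybridisation dates, but the array numbers separate subsets of arrays: the first and last 2 arrays of each group, and even and odd numbers. Counts follow for Antp73b and ap56f against OregonR and Antp73b against ap56f, in that order. On the first 2 arrays of each group 7, 9 and 4 of the 10 elements were called, where 18.1%, 9.63% and 10.1% of all elements were. On the last 2 arrays they were 5, 7 and 2, against 10.9%, 6.06% and 6.41% of all elements. On even-numbered arrays they were 6, 8 and 2, against 12.6%, 5.63% and 6.95%. On odd-numbered arrays 5, 8 and 4 of the 9 elements with values were called, against 12%, 8.94% and 7.95%. Acp36DE differed more on even-numbered arrays, by -0.57 for Antp73b and -0.48 for ap56f, than on odd-numbered arrays, by -0.28 and -0.27, and was called in all 4 fits. Acp63F was the least steady, at -0.44 for ap56f on the first 2 arrays (adjusted p = 2.4e-05) and -0.13 on the last 2 (adjusted p = 0.48). Acp53C14a, Acp62F, Acp36DE, Ebp and element 2 of Acp53C14b were called for both mutants against OregonR in every subset. EbpII and Acp76A were called in every subset for ap56f against OregonR.

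**Figure D4:**
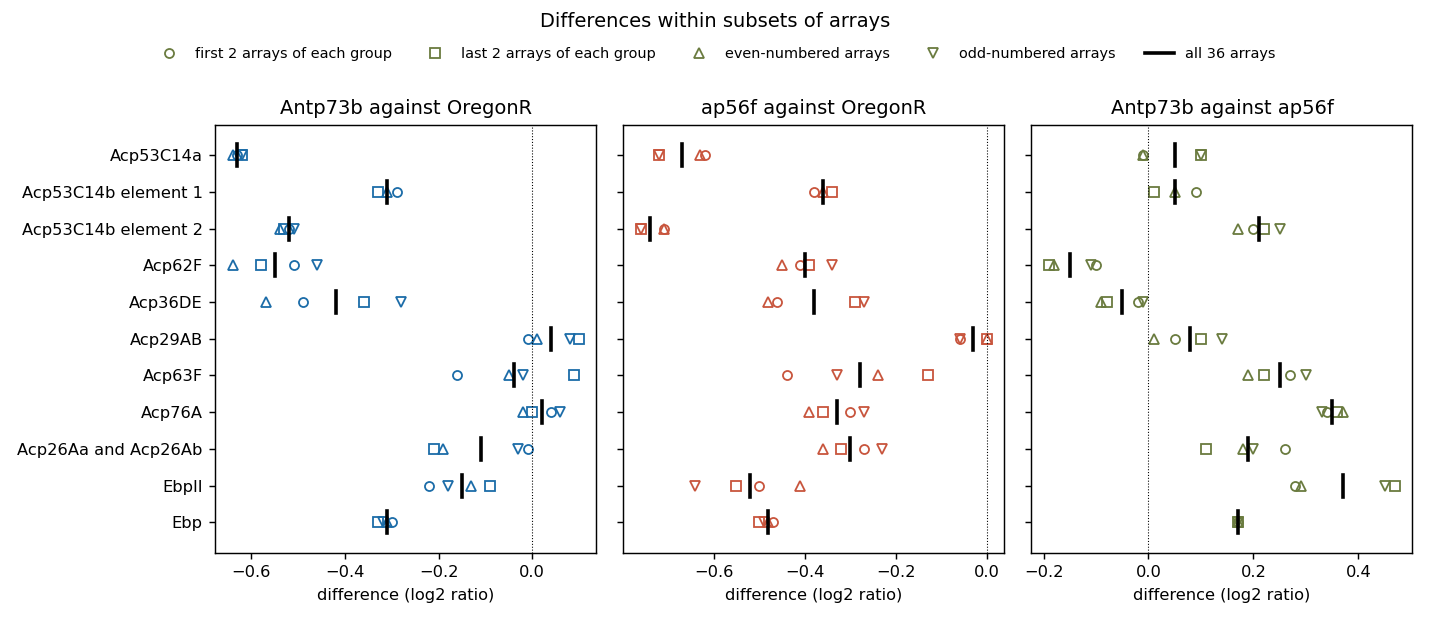
Difference in log2 ratio (x axis) of each gene or element (y axis) within subsets of arrays, in a panel per comparison, with black bars for all 36 arrays. The symbols of Acp53C14a and Ebp lie close together, those of Acp36DE against OregonR run from -0.57 to -0.27, and those of Acp63F for ap56f run from -0.44 to -0.13.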

How the data were processed

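Each deposited value is the signed fold ratio of a spot's channels, a unit read from the values themselves (0 of 1059750 lie between -1 and 1), with 1 decimal and 19.1% of values at 1 or -1. Per the labels, poly(A) mRNA was labelled with Cy3 (channel 1) or Cy5 (channel 2) and scanned on a GenePix 4000A scanner. Their background correction and normalization are not stated in the sources used here. Log2 ratios took the log2 of the fold's size and kept its sign. Duplicate spots (r per array 0.19 to 0.83, median 0.58) were averaged, and the median element of each array was set to 0. Elements with values on at least 2 arrays of each group were tested (866 left out). R 4.3.3 with limma 3.58.1 (lmFit, eBayes, two-sided) fitted a dye intercept and a term per mutant strain over 36 arrays, with Benjamini-Hochberg adjustment over all elements and a threshold of 0.05. Symbols were updated, and neighbours read, from RefSeq's Release 6 gene table. Between 26362 and 30716 spots per array had a value, and the number of arrays limits the precision.

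All listed genes with an element were named. Of the other seminal fluid list, the 4 genes with the smallest p among those called were named per comparison (a gene's further elements beside it), and of all genes the 5 most like the mean profile. The genes and lists were chosen with earlier results of these data known. The fits were checked on simulated data. Alternatives covered the dye term, direct arrays, centring, spots, filters, weights, blocks by place in the group and by odd or even array number, subsets of arrays and each array left out.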

Additional observations from a re-analysis of the deposited data

Results flagged for a closer look

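Of 90 groups of 4 arrays, 5 held an array further from the other 3 than Dixon's critical value at 95% allows, where chance gives about 1 in 20. That rate does not allow for rounding. Folds were deposited with 1 decimal, a log2 step of 0.14 next to 1, so rounding can tie arrays and raise a flag. Ebp stood at 0.13 on array 73 (ap56f over Antp73b), where the others lay between 0.26 and 0.27. Acp63F stood at 0.91 on array 68 (ap56f over OregonR), where the others lay between 0.00 and 0.07. Without that array its difference of ap56f from OregonR was -0.36, against -0.28 with it. Element 2 of Acp53C14b stood at -0.37 on array 40 (OregonR in both channels), where the others lay between 0.07 and 0.13, and at 0.84 on array 55 (OregonR over ap56f), where they lay between 1.10 and 1.11. The shared Acp26Aa and Acp26Ab element stood at -0.06 on array 48 (ap56f in both channels), where the others lay between 0.20 and 0.22.

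The differences of Antp73b and ap56f from OregonR differed from each other, by the limma contrast between the mutants, for EbpII (0.37), Acp76A (0.35), Acp63F (0.25), element 2 of Acp53C14b (0.21), the shared Acp26Aa and Acp26Ab element (0.19) and Ebp (0.17).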

How the results depend on the processing

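Of 33 differences (11 elements, 3 comparisons), 22 were called, 13 kept their call under all 20 alternatives and all 36 fits leaving out an array, and 0 of the 22 changed side. The 13 are those of Acp53C14a, element 2 of Acp53C14b, Acp62F and Acp36DE for both mutants against OregonR, of Ebp, EbpII and Acp76A for ap56f against OregonR, and of Acp76A and EbpII between the mutants.

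The elements called for Antp73b against OregonR (3347) numbered 1972 on the direct arrays alone, 2194 from the first spot, 1615 on the last 2 arrays of each group, 1867 on even-numbered and 1781 on odd-numbered arrays. For ap56f against OregonR (2264) they numbered 1335 without the dye term, 783 on direct arrays, 1272 from the first and 1473 from the second spot, 1432 on the first 2 and 901 on the last 2 arrays, 836 on even and 1323 on odd numbers. For Antp73b against ap56f (2227) they numbered 1460 without the dye term, 1042 on direct arrays, 1206 from the first spot, 953 on the last 2 arrays, 1032 on even and 1175 on odd numbers. Of the 10 elements, 2 in place of 5 were called between the mutants without the dye term, from the first spot, on the last 2 and on even-numbered arrays. Most of these settings use fewer arrays or spots. Leaving out an array gave 3064 to 3412, 1982 to 2319 and 1993 to 2327 elements, and 6 to 7, 9 to 9 and 4 to 6 of the 10.

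Uncalled differences changed side for Acp29AB (0.01 for ap56f on direct arrays, -0.01 for Antp73b on the first 2), Acp76A (-0.02 for Antp73b from the first spot and -0.02 on even numbers; -0.01 to 0.03 over arrays left out), Acp53C14a (-0.01 between the mutants on the first 2 and -0.01 on even numbers), Acp63F (0.09 for Antp73b on the last 2; -0.08 to 0.02 over arrays left out) and element 1 of Acp53C14b (-0.02 to 0.09 between the mutants over arrays left out). The cause was not tested. The share of calls on the plus side was 40.4% without centring, against 53.4%, for ap56f against OregonR. Centred on the median of single spots, an alternative chosen after seeing the data, it was 66.3%, against 54.2%, between the mutants. A block for place in the group (first or last 2 arrays) gave 3648, 2551 and 2479 elements called, and a block for odd or even array number 3404, 2336 and 2281, with 6, 9 and 5 of the 10 in both. No paired analysis was possible because the array numbers are all different, so that no number is shared between groups.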
